A study of Mus musculus with 10 samples.

Results

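The genes described here are 10 genes of alternative macrophage activation and type 2 immunity, chosen as a named list from the 45786 genes of the deposited tables by matching Ensembl identifiers to GENCODE M21 symbols. They are the cytokine receptor genes Il4ra and Il13ra1, the effector genes Alox15, Arg1, Retnla, Chil1 and Clec10a, and the chemokine genes Ccl17, Ccl22 and Ccl24. All 10 passed the filter on low counts. RNA was measured in whole-lung cell suspensions of C57BL/6J mice, an inbred laboratory strain. The age of the mice is not stated in the labels. The irradiated mice received 12.5 Gy of γ-rays to the whole thorax, and the age-matched controls received 0 Gy. Suspensions were taken 24 hours and 1, 4, 12 and 32 weeks after treatment, with 1 irradiated and 1 control pool at each time. Each pool combines the RNA of 3 mice, so the spread between single mice is not seen.

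IL-4 and IL-13, the main cytokines of type 2 immunity, signal through receptors that contain the IL-4 receptor α chain, encoded by Il4ra. That chain pairs with the common γ chain or with the IL-13 receptor α1 chain, encoded by Il13ra1, and the receptors activate the transcription factor STAT6. Macrophages that receive this signal take on the state called alternative activation, in which Arg1, Retnla, Clec10a and several chemokine genes are typically on. In the lung this state is known from allergic inflammation, from helminth infection and from tissue repair and fibrosis.

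Positions below are those of GRCm38 with GENCODE M21 gene bounds, and all 10 genes are protein coding. Il4ra lies at chr7:125552120-125579474 on the + strand and overlaps the antisense gene Gm44876, and the library kits do not record strand, so fragments of these genes cannot be told apart. Il13ra1 lies at chrX:36112110-36171259 on the + strand. Alox15 at chr11:70344152-70352031 and Arg1 at chr10:24915221-24927484 are on the - strand. Retnla at chr16:48842551-48844461, Chil1 at chr1:134182176-134190181 and Clec10a at chr11:70156197-70170834 are on the + strand. Ccl22 at chr8:94745590-94751699 and Ccl17 at chr8:94810453-94812036 are neighbours on the + strand with 58753 bases between them, and Ccl24 lies at chr5:135569937-135573049 on the - strand.

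The promoters of 3 members are shown because Ccl17 and Ccl22 rose and fell alike over the pools, while Retnla is a textbook STAT6 target in mice. Each run holds 250 bases before and 50 bases from the start of the gene in RefSeq's annotation of GRCm38.p6, 5′ to 3′ on the gene's strand. Capitals mark matches to TTCNNNNGAA (the spacing that STAT6 prefers), to TTCNNNGAA (the spacing of other STAT factors) and to TATAAA, where N is any base. The windows are chr16:48842359-48842658 for Retnla, chr8:94810203-94810502 for Ccl17 and chr8:94745434-94745733 for Ccl22.
Retnla: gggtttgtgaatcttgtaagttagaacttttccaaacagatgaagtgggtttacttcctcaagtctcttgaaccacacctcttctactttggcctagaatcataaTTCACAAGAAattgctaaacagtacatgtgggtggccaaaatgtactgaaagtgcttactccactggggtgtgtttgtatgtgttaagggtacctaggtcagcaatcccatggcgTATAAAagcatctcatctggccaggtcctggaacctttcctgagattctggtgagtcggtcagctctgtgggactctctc
Ccl17: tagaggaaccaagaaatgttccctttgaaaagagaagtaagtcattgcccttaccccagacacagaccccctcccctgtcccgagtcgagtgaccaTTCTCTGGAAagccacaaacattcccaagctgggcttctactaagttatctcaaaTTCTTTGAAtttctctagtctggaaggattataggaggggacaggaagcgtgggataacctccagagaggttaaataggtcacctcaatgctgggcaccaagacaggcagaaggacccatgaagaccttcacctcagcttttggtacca
Ccl22: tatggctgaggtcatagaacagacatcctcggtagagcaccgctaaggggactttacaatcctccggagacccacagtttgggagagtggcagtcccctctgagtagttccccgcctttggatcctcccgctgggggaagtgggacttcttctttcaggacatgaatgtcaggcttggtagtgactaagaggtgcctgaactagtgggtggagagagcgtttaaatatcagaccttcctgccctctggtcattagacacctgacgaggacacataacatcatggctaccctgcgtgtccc
The Retnla window holds TTCACAAGAA from -145 to -136 and TATAAA from -30 to -25, counted with the start as 0. The Ccl17 window holds TTCTCTGGAA from -154 to -145 and TTCTTTGAA from -99 to -91. The Ccl22 window has no match to the 3 motifs, which says only that these letters are not in these 300 bases. Of 32851 promoter windows of the same length, 6.95% hold TTCNNNNGAA, 8.3% hold TTCNNNGAA (both motifs read the same on either strand) and 8.32% hold TATAAA on the gene's strand. Windows were found for 6 of the 10 members, and those of Il4ra, Il13ra1 and Chil1 also held no match.

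The libraries held 8679551 to 17473108 fragments, and the control pool of 12 weeks was the shallowest. Levels are given as CPM, which is the count as a share of the scaled library total, set to one common total, and as FPKM where genes are compared with each other, since FPKM also divides by gene length. Haemoglobin genes took 0.803% to 6.67% of the counts of a library. The members with the fewest fragments were Ccl24, with 63 to 256 fragments in a pool, and Arg1, with 80 to 1681. Each pool is 1 library, so p-values reflect differences from pool to pool, in which biological and technical sources are mixed.

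In the control lungs the members spanned a wide range of levels. Chil1, which encodes a chitinase-like protein, had the highest mean at 293 ± 68.7 FPKM (SD, n = 5 pools), followed by Retnla, which encodes the secreted protein RELMα, at 249 ± 86.8. Ccl17 followed at 83.8 ± 25.5 FPKM, as the most abundant of the 3 chemokine genes. Il13ra1 stood at 22.4 ± 6.83 FPKM, Alox15 at 17.8 ± 5.97, Il4ra at 15.8 ± 1.76, Clec10a at 13.02 ± 3.11 and Ccl22 at 12.7 ± 4.58. The lowest means were those of Ccl24 at 6.41 ± 2.23 FPKM and Arg1 at 5.23 ± 4.62. The ranges of neighbours in this order overlapped except between Retnla and Ccl17 and between Ccl17 and Il13ra1. Il4ra varied least over the controls, with a highest control 1.2 times the lowest, and Arg1 varied most, at 5.42 times.

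**Figure D1:**
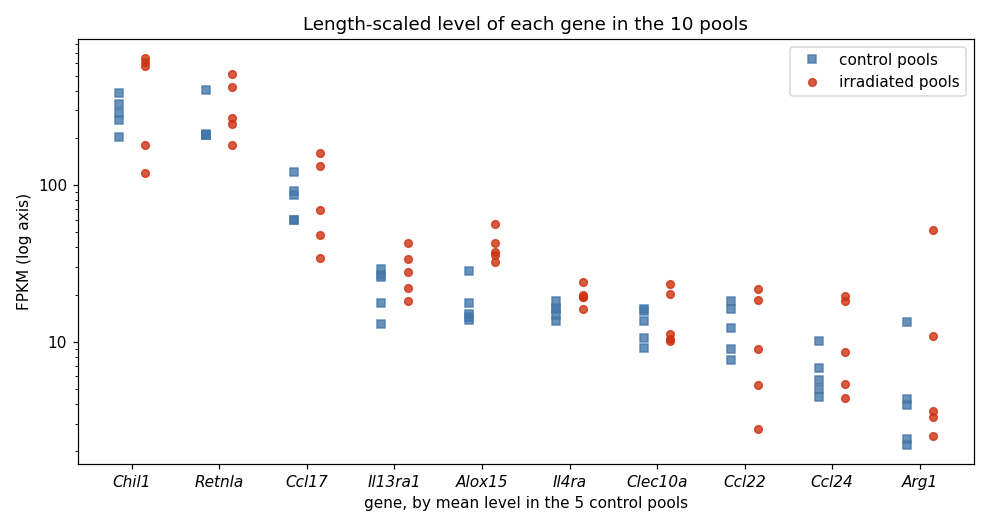
FPKM of the 10 genes in the 5 control and 5 irradiated pools, on a log axis, 1 point per pool and genes ordered by their control mean. Chil1 and Retnla have the highest control means and Ccl24 and Arg1 the lowest, and the irradiated Arg1 pool of 24 hours stands far above the other Arg1 points.

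Over the 5 times, Alox15 was the member whose levels differed most clearly between irradiated and control lungs: its CPM was higher in the irradiated pool of all 5 pairs, and all 5 irradiated pools lay above all 5 controls. No other member separated the groups. Of the 15625 genes tested, 6.75% were higher in all 5 pairs and 1.17% had all 5 irradiated pools above all 5 controls. With time as a block, edgeR's quasi-likelihood test called 0 of the 10 members at an adjusted p under 0.05, and it called 0% of the 15625 genes. At an unadjusted p under 0.05 it picked 2 members, Alox15 and Ccl24, beside 11.1% of all genes. DESeq2 called 1 member, Alox15, and 0.904% of its genes. The median log2 difference was 0.20 over the members and 0.01 over all genes tested.

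**Figure D2:**
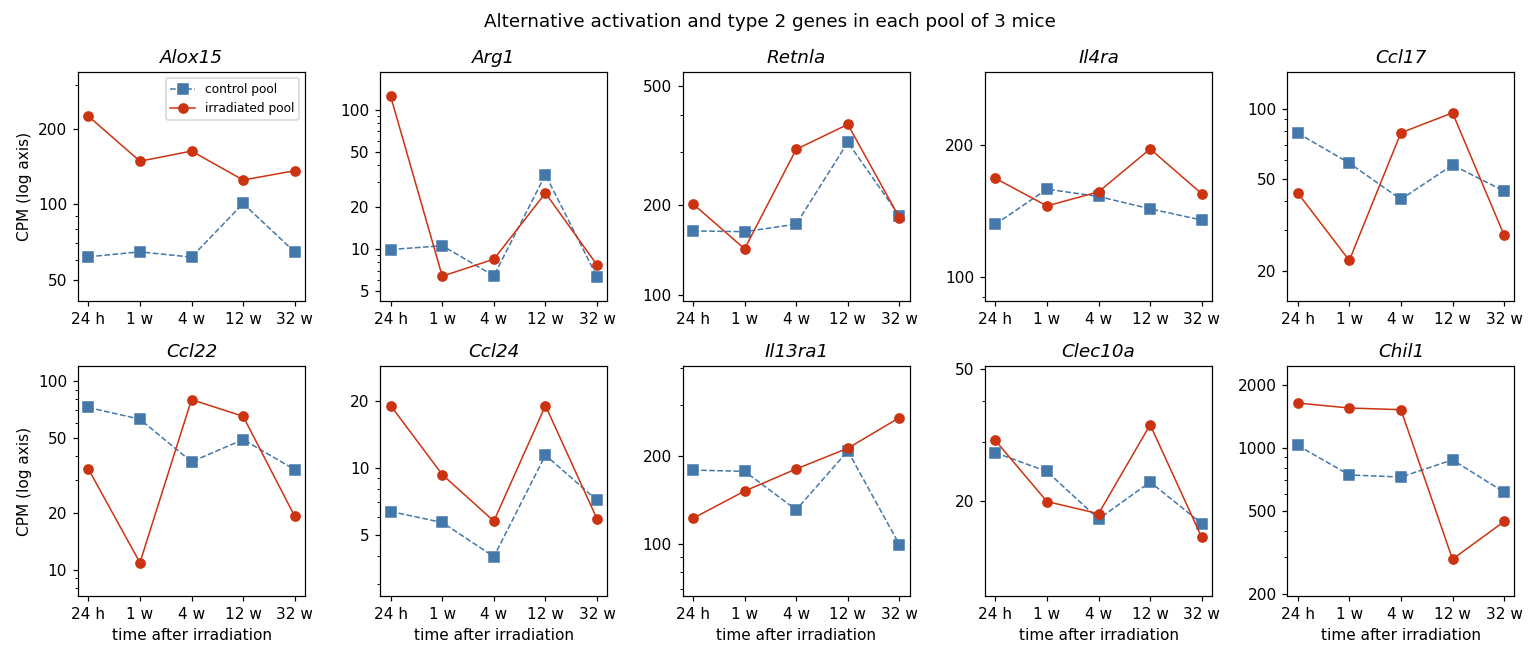
CPM of each of the 10 genes in the irradiated and control pool of each time, on log axes, with times evenly spaced and lines joining different pools. Alox15 is above its control at all 5 times, Arg1 stands out at 24 hours, Ccl17 and Ccl22 are lowest at 1 week, and Chil1 is above its controls up to 4 weeks and below them at 12 and 32 weeks.

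Il4ra, the shared receptor chain, was nearly level over all pools. Its control CPM was 132.0, 158.8, 152.8, 143.2 and 135.0 at 24 hours, 1, 4, 12 and 32 weeks, and its irradiated CPM was 168.1, 145.4, 156.6, 196.2 and 155.0 in the same order. The groups overlapped, with the irradiated pools of 24 hours and 12 weeks above every control in CPM. In FPKM those of 4 weeks (19.2) and 32 weeks (19.21) also lay above the highest control (18.15). The irradiated pool of 1 week (16.14 FPKM) lay within the control range. The difference over the 5 times was 0.18 ± 0.11 on the log2 scale (SE, edgeR adjusted p = 0.565). The irradiated pool was higher in 4 of 5 pairs, and in 3 of 5 where libraries were scaled by their total counts.

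Il13ra1, the chain that pairs with it to form the receptor for both cytokines, stood out at the last time. The control pools held 178.9, 177.1, 130.7, 208.1 and 99.23 CPM in order of time, and the irradiated pools 122.2, 151.5, 180.5, 212.6 and 270.8. The irradiated values were ordered from the earliest to the latest time, though each came from different mice, and the 32-week pool was the highest of all 10 while its control was the lowest. The groups overlapped. The matched difference at 32 weeks was 1.45 on the log2 scale, a 2.73-fold higher level, with no replicate at that time. Against the 5 controls together it was 0.77 ± 0.31 (edgeR adjusted p = 0.250). Over the 5 times the difference was 0.22 ± 0.25 (edgeR adjusted p = 0.773), and without the 32-week pools it was -0.07. The change of the difference with time was 0.21 ± 0.06 log2 units per doubling of days, with an unadjusted p = 0.00646 and an edgeR adjusted p = 0.679. In the same 32-week pools 10 of 14 alveolar macrophage markers were higher, with a summed CPM of 24040 in the irradiated and 8561 in the control pool. Chil3 alone made up 19590 and 5944 of these, and the other 13 summed to 4451 against 2617. The 11 mast cell and basophil markers summed to 434.2 against 189, with 10 of 11 higher and 5 called in edgeR. All 6 ciliated markers (456.8 against 242.5) and all 5 red cell markers (22270 against 7518) were also higher. Other lists went the other way. All 10 T cell markers (544.6 against 1271), all 8 alveolar type 2 markers (8530 against 23340) and all 7 fibroblast markers (756.7 against 1708) were lower. The part of these cells in the Il13ra1 level was not tested.

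Alox15 encodes 12/15-lipoxygenase, which oxygenates polyunsaturated fatty acids and is induced by IL-4 and IL-13. In the controls its CPM was 61.91, 64.78, 61.72, 100.9 and 64.67 in order of time, and in the irradiated pools it was 224.6, 148.6, 163.1, 125.1 and 136.2. The 24-hour irradiated pool was the highest and the 12-week control was the only control above the rest. The matched folds were 3.62, 2.29, 2.64, 1.24 and 2.1. The irradiated mean was 159.5 ± 39.0 CPM and the control mean 70.8 ± 16.9 (SD, n = 5 each). The difference over the 5 times was 1.17 ± 0.19 on the log2 scale, with an adjusted p of 0.15 in edgeR and 2.37e-06 in DESeq2. Because whole lung suspensions were measured, more cells that express the gene and more RNA per cell cannot be told apart here, nor can fewer cells of a type and less RNA per cell for genes that are lower.

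At 24 hours Alox15 rose, by 1.67 ± 0.24 on the log2 scale against the 5 controls (edgeR adjusted p = 0.011). It was the 1 member called at that time, when 1.06% of the 15625 genes were called in either direction and 0.602% as higher. The call held when any 1 control was left out, with edgeR adjusted p from 0.00143 to 0.0426, and it was just missed by limma on FPKM, with adjusted p = 0.0524 and 0.0506 at pseudocounts of 1 and 0.1. At 1, 4, 12 and 32 weeks the differences from the 5 controls were 1.07, 1.20, 0.82 and 0.94, with edgeR adjusted p of 0.225, 0.231, 0.313 and 0.102. The 12-week control, the highest for Alox15, weighed on these tests. Leaving out the highest control is bound to raise the difference, so a pass without it adds no further support. Without it, Alox15 passed at 1 week (edgeR adjusted p = 0.0435), 4 weeks (0.0257) and 32 weeks (0.0278), and not at 12 weeks (0.146). The slope of its difference over time was -0.13 ± 0.06 log2 units per doubling of days (edgeR adjusted p = 0.688).

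Alox15 is also a known product of mouse eosinophils and resident macrophages. The summed CPM of 7 eosinophil markers other than Alox15 was 180.5 in the irradiated and 143.8 in the control pool at 24 hours, with 2 higher and 4 lower. Over all times this sum ran from 47.96 to 180.5 in the irradiated pools and from 113.8 to 162.9 in the controls, so the groups overlapped. Siglecf, which alveolar macrophages also express, made up most of it, with 163.0 and 133.2 of the 24-hour sums. The other 6 markers summed to 17.54 against 10.57 at 24 hours, with 1 higher and 4 lower. The eosinophil peroxidase gene Epx had 0 fragments in 6 of 10 pools and at most 10 in any. The 16 markers of monocytes and interstitial macrophages summed to 5489 CPM in the irradiated and 3964 in the control pool at 24 hours, 14 of 16 were higher and 5 (C1qb, C1qc, Ms4a7, Lyve1 and Pf4) rose in edgeR. Their sums were higher in the irradiated pool at every time, at 4532 against 3955 at 1 week, 4100 against 2892 at 4 weeks, 4425 against 3021 at 12 weeks and 3743 against 3108 at 32 weeks. Mesothelial and red cell sums were also higher in the irradiated pool at every time. Alveolar macrophage sums were higher at 24 hours, 12 weeks and 32 weeks. They were lower at 1 week (10200 against 11330) and 4 weeks (3986 against 8407). Without Chil3, alveolar macrophage sums were higher at 1 week (3347 against 2982). They were then lower at 4 weeks (1938 against 2244) and 12 weeks (3322 against 3410). The part of these cells in the Alox15 level was not tested.

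Arg1 encodes arginase 1, which cleaves arginine to ornithine and urea, and its high level was in 1 pool. Its control CPM was 9.905, 10.54, 6.415, 34.13 and 6.3, and its irradiated CPM was 124.5, 6.372, 8.441, 25.18 and 7.662. The irradiated pool of 24 hours was 12.4 times its matched control, and the other irradiated pools lay within the control range. Against the 5 controls the 24-hour difference was 3.21 ± 0.73 on the log2 scale and did not pass (edgeR adjusted p = 0.146). Without the high 12-week control it was 3.90 ± 0.27. Leaving out the highest control is bound to raise the difference, so this larger value adds no further support. The difference over the 5 times was 0.53 ± 0.58 (edgeR adjusted p = 0.764), and without the 24-hour pools it was -0.13.

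The genes whose levels over the 10 pools were closest to those of Arg1 were Ifit3b, Ifit3 and Isg15, which are interferon-stimulated genes. Likeness was measured as the root mean square difference of log2 CPM after centring each gene on its mean. These differences were 0.797, 0.802 and 0.818, set against a standard deviation of 1.40 for Arg1 itself, and Ccl24 ranked the fifth at 0.855. At 24 hours 9 of 11 neutrophil markers were higher in the irradiated pool, with a summed CPM of 1305 against 805.1, beside the monocyte and macrophage markers above. All 8 alveolar type 2 markers (57010 against 41900), 12 of 14 alveolar macrophage markers (18490 against 13740) and all 5 red cell markers (52170 against 41860) were also higher. All 6 B cell markers (517.1 against 1058) and all 6 ciliated markers (79.62 against 124.5) were lower. The part of these cells in the Arg1 value was not tested.

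Retnla had its high values in the irradiated pool of 4 weeks and in both pools of 12 weeks. The CPM of the controls was 163.7, 162.7, 172.4, 324.3 and 183.9, and that of the irradiated pools was 201.6, 142.5, 307.3, 372.4 and 181.3. Both 12-week pools were the highest of their group, and the groups overlapped. The matched difference was largest at 4 weeks, at 0.83 on the log2 scale. Its difference over all times was 0.22 ± 0.14 (edgeR adjusted p = 0.600).

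Chil1 encodes a chitinase-like lectin that mouse alveolar type 2 cells as well as macrophages are known to make, and its irradiated levels lay above the controls early and below them late. Its control CPM was 1027, 741.4, 724.3, 875.9 and 612.7, and its irradiated CPM was 1640, 1553, 1524, 292.3 and 443.3. The irradiated pools of the first 3 times lay above every control and those of the last 2 below every control. The level was 1.6, 2.09 and 2.1 times that of the matched control at 24 hours, 1 and 4 weeks, and 3.0-fold and 1.38-fold lower at 12 and 32 weeks. Against the 5 controls the differences were 1.04 ± 0.24, 0.96 ± 0.24, 0.94 ± 0.24, -1.45 ± 0.28 and -0.85 ± 0.27 on the log2 scale. None passed in edgeR, with adjusted p of 0.0824, 0.240, 0.439, 0.177 and 0.160. DESeq2 called all 5, with adjusted p of 0.00214, 0.0179, 0.0411, 1.56e-05 and 0.0230. Without the 24-hour control, the highest for Chil1, the 24-hour difference was 1.15, and leaving out the highest control is bound to raise it. Over the 5 times the difference was 0.18 ± 0.38 (edgeR adjusted p = 0.897), and it was -0.06 without the pools of 1 week or without those of 4 weeks. The slope over time was -0.23 ± 0.11 log2 units per doubling of days (edgeR adjusted p = 0.726).

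Chil1 and alveolar type 2 markers differed in the same direction at each time. The summed CPM of 8 such markers was 57010 in the irradiated and 41900 in the control pool at 24 hours, 58470 against 28330 at 1 week and 42380 against 26680 at 4 weeks. It was 7343 against 34230 at 12 weeks and 8530 against 23340 at 32 weeks. All 8 were higher at 24 hours and 1 week, 7 at 4 weeks, and all 8 were lower at 12 and 32 weeks. The sums of 6 alveolar type 1 markers had the same direction at each time. They were 658.2 against 541.2, 725.3 against 386.7 and 615.2 against 521.0 at the first 3 times. At 12 and 32 weeks they were 223.4 against 386.0 and 325.8 against 331.6. At 4 weeks 3 type 1 markers were higher and 3 lower. The genes closest to Chil1 over the 10 pools were Sftpd, a surfactant protein gene, Ppp1r14c and Ager, a marker of alveolar type 1 cells, with root mean square differences of 0.178, 0.178 and 0.184 set against a standard deviation of 0.816 for Chil1. The part of the epithelial cells in the Chil1 level was not tested. Of 14 alveolar macrophage markers, 12, 8, 5, 7 and 10 were higher in the irradiated pool in order of time, with median log2 differences of 0.37, 0.05, -0.23, -0.05 and 0.60. At 4 weeks 4 of the 14, Siglecf, Ear1, Krt79 and Fabp1, fell in edgeR.

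**Figure D3:**
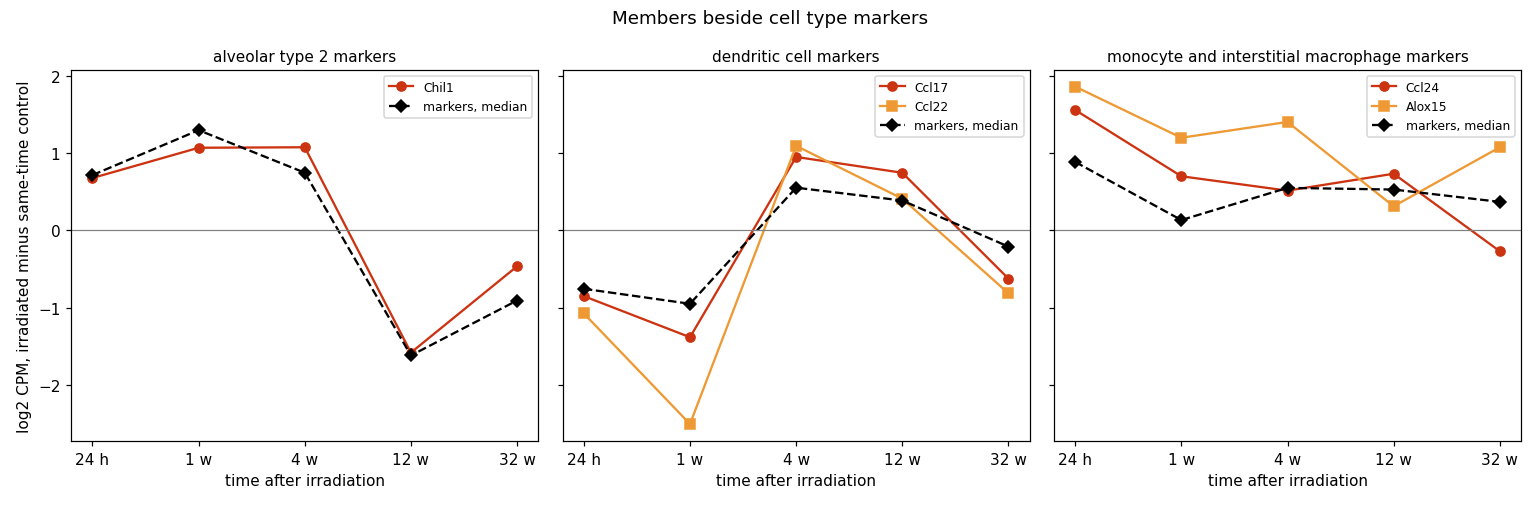
Matched log2 difference (irradiated minus control pool of the same time) of Chil1 beside the median of alveolar type 2 markers, of Ccl17 and Ccl22 beside the median of dendritic cell markers, and of Ccl24 and Alox15 beside the median of monocyte and interstitial macrophage markers, with members left out of the medians. Chil1 and the type 2 median are above 0 up to 4 weeks and below 0 at 12 and 32 weeks, and Ccl17, Ccl22 and the dendritic median share their sign at each time. Alox15 and the macrophage median are above 0 at all 5 times, while Ccl24 is below 0 at 32 weeks.

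Clec10a, which encodes a galactose-binding C-type lectin of macrophages and dendritic cells, had no shared direction over the pairs. Control pools stood at 27.9, 24.48, 17.6, 22.75 and 17.05 CPM, and irradiated pools at 30.36, 19.87, 18.26, 33.86 and 15.48. The irradiated pools of 24 hours and 12 weeks lay above every control and that of 32 weeks below every control in CPM, though not in FPKM. The level at 12 weeks was 1.48 times that of the matched control. The groups overlapped, with the irradiated pool higher in 3 of 5 pairs. Over all times together it differed by 0.06 ± 0.16 on the log2 scale (edgeR adjusted p = 0.920). Clec10a shares 8.49% of its 50-base windows with its paralog Mgl2. Mgl2 had the higher control mean, at 196.5 CPM against 21.96 for Clec10a, so fragments from the shared windows could make up a larger share of the Clec10a value than that, and its values are uncertain.

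Ccl17 and Ccl22 encode the chemokines that attract cells bearing the receptor Ccr4, and dendritic cells are a known source of both. The control CPM of Ccl17 was 78.67, 58.45, 40.83, 57.39 and 44.29, and its irradiated CPM was 43.49, 22.3, 78.89, 96.14 and 28.63. That of Ccl22 was 72.31, 62.67, 37.28, 48.9 and 33.91 in the controls and 34.2, 10.9, 79.58, 64.92 and 19.19 in the irradiated pools. For both genes the irradiated pool was lower than its matched control at 24 hours, 1 week and 32 weeks and higher at 4 and 12 weeks. The irradiated pools of 1 and 32 weeks lay below every control for both genes, and that of 4 weeks above every control. The groups as a whole overlapped.

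At 1 week Ccl22 was 5.68-fold and Ccl17 2.61-fold lower than in the matched control. Against the 5 controls the 1-week differences were -2.23 ± 0.45 for Ccl22 and -1.33 ± 0.35 for Ccl17 on the log2 scale. Neither passed in edgeR, with adjusted p of 0.189 and 0.288, and both passed in DESeq2, with adjusted p of 6.7e-06 and 0.00686. At 1 week edgeR called 0 of the 10 members and 0.0192% of all genes, 4 members had an unadjusted p under 0.05 beside 9.5% of all genes, and DESeq2 called 4 members and 0.92% of its genes. At 32 weeks the difference of Ccl22 was -1.41 ± 0.42, with an adjusted p of 0.126 in edgeR and 0.00752 in DESeq2. Over the 5 times it was -0.55 ± 0.46 for Ccl22 (edgeR adjusted p = 0.691) and -0.23 ± 0.34 for Ccl17 (edgeR adjusted p = 0.834), and the latter was 0.06 without the 1-week pools.

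Of all genes tested, Ccl17 had the course over the 10 pools closest to that of Ccl22, after centring each gene on its mean. The root mean square difference was 0.315, followed by Gm1965 at 0.341 and Tnfrsf9 at 0.377. The FPKM of Ccl17 was 5.67 to 9.17 times that of Ccl22 in 9 pools and 12.4 times in the irradiated pool of 1 week, where Ccl22 stood at 2.77 FPKM. The 15 dendritic cell markers other than the members had a summed CPM of 806.7 in the irradiated and 1382 in the control pool at 24 hours, 841.8 against 1645 at 1 week and 882.7 against 1087 at 32 weeks. The sums were 1364 against 1039 at 4 weeks and 1647 against 1262 at 12 weeks. Of the 15 markers, 13, 14 and 9 were lower at 24 hours, 1 week and 32 weeks, and 14 were higher at both 4 and 12 weeks. The median matched log2 difference of the markers at 1 week was -0.95, beside -1.38 for Ccl17 and -2.51 for Ccl22. Lymphocyte markers shared much of this course. The 6 B cell markers had median matched log2 differences of -1.03, -0.96, 0.22, 0.06 and -0.18 in order of time, with the sign of both chemokines at each time. The 10 T cell markers had medians of -0.93, -0.95, -0.46, 0.27 and -1.19, of the other sign at 4 weeks. The part of these cells in the chemokine levels was not tested.

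Ccl24 encodes eotaxin-2, which attracts eosinophils through the receptor Ccr3. Its control CPM was 6.356, 5.675, 3.988, 11.38 and 7.134, and its irradiated CPM was 18.98, 9.306, 5.755, 18.98 and 5.882. The irradiated pools of 24 hours and 12 weeks shared the highest value, and the irradiated pool was higher in 4 of 5 pairs. The groups overlapped. The difference over the 5 times was 0.67 ± 0.27 on the log2 scale, with an unadjusted p = 0.0357 and an edgeR adjusted p = 0.412. At 24 hours it was 1.46 ± 0.44 against the 5 controls (edgeR adjusted p = 0.202). The closest genes to Ccl24 over the pools were Aoah, Cd209f and Plekhg1, at root mean square differences of 0.303, 0.362 and 0.365 beside a standard deviation of 0.747 for Ccl24.

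**Figure D4:**
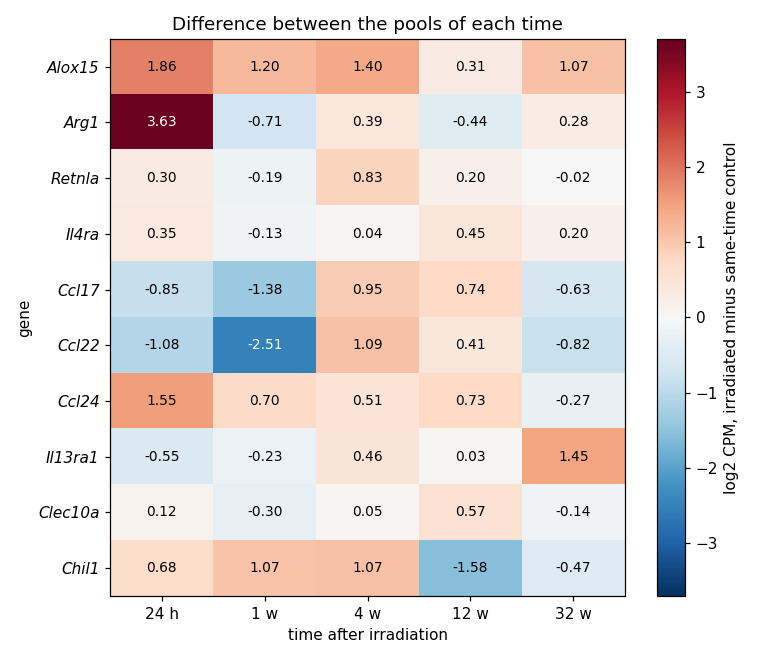
Matched log2 difference of the 10 genes at each of the 5 times, coloured from lower to higher in the irradiated pool, with 1 pair of pools behind each cell. The highest cell is Arg1 at 24 hours at 3.63 and the lowest is Ccl22 at 1 week at -2.51.

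The direction of the members differed between times. The irradiated pool was higher than its matched control for 7 of 10 members at 24 hours, 3 at 1 week, 10 at 4 weeks, 8 at 12 weeks and 4 at 32 weeks, while between 49.6% and 53.2% of all genes were higher at each time. With scaling by total counts the number at 4 weeks was 8, as Il4ra and Clec10a turned. On the deposited FPKM it was 9 at 4 weeks, as Ccl24 turned, and 6 at 32 weeks, as Retnla and Clec10a turned. The members' median matched log2 differences were 0.32, -0.21, 0.67, 0.36 and -0.08 in order of time. The number of members outside the range of the 5 controls was 6, 5, 4, 8 and 6, beside 43.3%, 41.4%, 36%, 43.4% and 48.8% of all genes. The 1-week irradiated pool was the lowest of its group for 5 members, Arg1, Retnla, Il4ra, Ccl17 and Ccl22.

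Apart from Alox15 at 24 hours, no member passed at a single time in edgeR. At 24 hours 4 members had an unadjusted p under 0.05 beside 11.9% of all genes, and DESeq2 called 2 members and 2.12% of its genes. At 4 weeks edgeR called 0 members and 0.0576% of all genes, 2 members had an unadjusted p under 0.05 beside 7.2%, and DESeq2 called 2 members and 0.326%. At 12 weeks edgeR called 0 members and 0% of all genes, 6 members had an unadjusted p under 0.05 beside 10.7%, and DESeq2 called 1 member and 0.88%. At 32 weeks edgeR called 0 members and 0.826% of all genes, 5 members had an unadjusted p under 0.05 beside 16.4%, and DESeq2 called 3 members and 3.31%. The members called by DESeq2 were Chil1 at all 5 times, Alox15 at all but 12 weeks, Ccl17 at 1 week and Ccl22 at 1 and 32 weeks. A change of the difference with time was called for 0 members and 0% of all genes in edgeR, 4 members had an unadjusted p under 0.05 beside 7.01%, and DESeq2 called 0 members and 0.218% of genes.

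Among the controls, edgeR found a slope over time for 0 members and 0% of all genes, 0 members had an unadjusted p under 0.05 beside 4.31%, and DESeq2 called 0 members and 0.0787%. The 12-week control was the highest control for 5 members, Alox15, Arg1, Retnla, Ccl24 and Il13ra1, and the 24-hour control for 4, Ccl17, Ccl22, Clec10a and Chil1. At 12 weeks the matched log2 differences of Alox15, Arg1, Retnla, Ccl24 and Il13ra1 were 0.31, -0.44, 0.20, 0.73 and 0.03. Their differences from the controls of all times, with any 1 left out, were at least 0.78, 0.72, 0.82, 1.31 and 0.29. The matched differences of Il4ra, Ccl17 and Chil1 were 0.45, 0.74 and -1.58. The 12-week counts above, set against the 5 controls, thus do not tell irradiation from the level of that time. The 32-week control was the lowest for 5 members.

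The ligands themselves were scarce. Il13 had 0 fragments in all 10 pools, which allows up to 3 fragments in each. Il4 had 4 to 23 fragments in the controls and 4 to 13 in the irradiated pools and was too low to be tested. Of 15 genes of IL-4 and IL-13 ligands, receptors and signalling, 11 were tested and none passed at any time or over the 5 times. Over the 5 times 9 of the 11, Il4ra and Il13ra1 among them, were higher, with a median log2 difference of 0.10 against 0.01 over all genes. Stat6, the transcription factor of the pathway, was higher in 5 of 5 pairs, by 0.26 ± 0.09 on the log2 scale (edgeR adjusted p = 0.332).

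Among 25 other genes of alternative macrophage activation, 24 were in the files and 22 were tested. None passed over the 5 times, with 18 higher, 4 lower and a median log2 difference of 0.14 against 0.01 over all genes. Against the 5 controls, 17, 14, 8, 17 and 14 of the 22 were higher in order of time. The medians were 0.43, 0.20, -0.28, 0.45 and 0.39, so the list was mostly lower at 4 weeks. Msr1, a macrophage scavenger receptor, rose at 24 hours by 1.52 ± 0.27 on the log2 scale (edgeR adjusted p = 0.0348). Its CPM was 91.79 in that pool. Over all times it ran from 58.1 to 91.79 in the irradiated pools and from 20.29 to 40.66 in the controls, with no overlap. Of all genes tested, 1.17% had all 5 irradiated pools above all 5 controls. The Msr1 difference over the 5 times was 1.21 ± 0.17 and did not pass (edgeR adjusted p = 0.15). At 32 weeks 3 of the 22 rose and 0 fell: Tgm2, which encodes a transglutaminase, by 0.91 ± 0.15 (edgeR adjusted p = 0.036), Ch25h, which encodes cholesterol 25-hydroxylase, by 1.71 ± 0.31 (0.0428), and Msr1 by 1.44 ± 0.28 (0.0485). These calls were close to the threshold. Msr1 at 24 hours was lost without the control of 1 week (edgeR adjusted p = 0.0838) or of 32 weeks (0.0599). At 32 weeks, leaving out single controls raised the adjusted p to as much as 0.107 for Msr1, 0.0922 for Tgm2 and 0.0986 for Ch25h. With limma on FPKM, Msr1 at 24 hours was lost at both pseudocounts (adjusted p = 0.0872 and 0.0932).

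The remaining named genes of that list did not pass over the 5 times. Mrc1, the mannose receptor, differed by 0.38 ± 0.12 (edgeR adjusted p = 0.319). Chil3, a chitinase-like protein of alveolar macrophages, differed by 0.12 ± 0.40 (0.943), Mgl2 by -0.30 ± 0.23 (0.655), Pdcd1lg2, which encodes an immune checkpoint ligand, by 0.13 ± 0.24 (0.883) and F13a1, which encodes a coagulation factor subunit of macrophages, by 0.83 ± 0.11 (0.15), the last in 5 of 5 pairs.

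In the other pathway lists 1 gene passed at any time. Fcgr1, an Fc receptor on the list of 15 tested classical activation genes, rose at 24 hours by 1.62 ± 0.21 on the log2 scale (edgeR adjusted p = 0.00781), and it passed under each alternative run. None of 14 tested genes of type 2 alarmins, cytokines and their receptors passed. Il7r, the IL-7 receptor gene, was lower in 5 of 5 pairs, at -0.49 ± 0.14 on the log2 scale (edgeR adjusted p = 0.283). Il7r is also on the list of 10 T cell markers, all of which were lower over the 5 times, with a median of -0.65. None of 5 tested chemokine receptors and other type 2 chemokines passed: Ccr4, the receptor of Ccl17 and Ccl22, differed by 0.46 ± 0.29 (edgeR adjusted p = 0.593), Ccr3 by 0.34 ± 0.27 (0.678) and Ccl8, a chemokine of type 2 inflammation in mice, by 0.94 ± 0.24 (0.257). None of 13 tested genes of arginine use passed, with Arg2, the mitochondrial arginase, at 0.02 ± 0.28 (edgeR adjusted p = 0.989). None of 12 tested genes of lipoxygenases and lipid mediators passed, with the cyclooxygenase genes Ptgs1 at 0.80 ± 0.21 (edgeR adjusted p = 0.258) and Ptgs2 at 0.81 ± 0.26 (0.326), each higher in 4 of 5 pairs.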

How the data were processed

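Per the labels' protocols, RNA was extracted with Qiagen RNeasy PLUS from 3 mice per pool, and libraries were made with Clontech ultralow and Illumina NexteraXT kits. The build was GRCm38.p4, and the tools Cuffdiff, Cufflinks 2.0.2, STAR 2.4.2a and Trimmomatic 0.32, per the submitters' processing notes. What each tool did, and with which annotation, is not given in the sources used here. For each of 45786 genes the authors deposited an expected count, which estimates its fragments, and an FPKM value, which also allows for length. Of these genes, 45137 were matched to GENCODE M21 symbols. Low expected counts as deposited lay at multiples of a step from 0.576 to 1.38 per library, with 77.5% to 81.1% of values under 100 fragments whole within a tolerance of 0.05. Division by the step gave 8679551 to 17473108 fragments, while the deposited totals were 9983710 to 13509769. No 2 libraries were identical.

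Expected counts were rounded and scaled by TMM (factors 0.933 to 1.09). The 15625 genes that passed filterByExpr with a minimum count of 10 were tested with 2-sided quasi-likelihood F tests in edgeR 4.0.16 (R 4.3.3), with Benjamini-Hochberg adjustment over all of them and a threshold of 0.05. Over the 5 times the fit held time as a block, since the labels pair pools by time (4 residual degrees of freedom). At each time 1 irradiated pool was set against the 5 controls (4 degrees of freedom), which assumes that it varies like them and does not tell age from irradiation. A change with time was tested over log2 days (3 degrees of freedom), and the slope of the controls in a fit of all 10 pools with a slope for each treatment (6). Matched log2 differences used a prior count of 2 and have no test. SE values are the log2 difference over the root of F. Alternatives were DESeq2 1.42.0, limma 3.58.1 on log2(FPKM + 1) and log2(FPKM + 0.1), other scalings, no filter, counts divided by the step, no block, and leaving out pools.

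The members and lists were chosen with earlier results of these data known. All 10 members are named. Of each pathway list, the text names genes that passed, otherwise those with the smallest p, and some regardless of values. Marker lists are given by sums, counts and medians, with passing markers named only beside some results. Marker sums without Chil3 or Siglecf and directions on FPKM were chosen after seeing the data. Likeness was computed for the 4 members with the largest spread over the pools. Whether mice were shared between pools is not stated, and PCR copies count as fragments.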

Additional observations from a re-analysis of the deposited data

Results flagged for a closer look

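Among 20 sets of 5 pools (10 genes in 2 treatments), 2 had a pool far from the rest, where chance alone flags about 1 set in 20. In both the pool was the control of 12 weeks. For Alox15 it stood at 100.9 CPM, and its gap to the nearest control was 0.902 of the range of the 5 controls. For Retnla it stood at 324.3 CPM, and the gap was 0.822 of the range. The critical value for 5 samples is 0.71.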

How the results depend on the processing

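The difference over the 5 times kept its sign under every alternative run for Alox15, Retnla, Il4ra, Ccl22 and Ccl24. In edgeR it turned when single times were left out for Arg1 (-0.132 to 0.887 on the log2 scale), Ccl17 (-0.536 to 0.0582), Il13ra1 (-0.0698 to 0.422), Clec10a (-0.0653 to 0.155) and Chil1 (-0.0611 to 0.597), and for Clec10a also with total count scaling (-0.0002), and none of these values passed. DESeq2 called 1 member over the 5 times, 2 at 24 hours, 4 at 1 week, 2 at 4 weeks, 1 at 12 weeks and 3 at 32 weeks. Without the filter on low counts edgeR called 2 at 24 hours, 1 at 4 weeks and 1 at 12 weeks. With limma on FPKM 0 members passed at 24 hours at a pseudocount of 1 and 0 at a pseudocount of 0.1. Leaving out 1 control at a time gave 1 to 2 members at 24 hours, 0 to 1 at 1 week, 0 to 1 at 4 weeks, 0 at 12 weeks and 0 to 1 at 32 weeks, where the control behind each gain was that of 12 weeks or, for Chil1 at 24 hours, that of 24 hours. Without the replicate block on time edgeR called 0 members over the 5 times, and Arg1 differed by 1.35 in place of 0.53 on the log2 scale. The control left out for each gain was the highest control of that gene, which is bound to raise a positive difference. The cause of these shifts was not tested. Total count scaling moved the median matched difference of all genes by up to 0.176 (log2, at 32 weeks). In the edgeR fits against the 5 controls the median of all genes went from -0.020 to -0.113 at 32 weeks. At 24 hours it went from -0.011 to -0.144. At 32 weeks Msr1 and Ch25h lost their call with total count scaling (edgeR adjusted p = 0.0676 each), Msr1 also with counts divided by the step (0.0527), and Msr1 and Tgm2 with limma on FPKM at a pseudocount of 0.1 (adjusted p = 0.0652 and 0.0522). Depth limits the low genes, Il4 and Il13 among them, and 1 pool per time and treatment leaves no replicate within a time.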
